A study of Mus musculus with 4 samples.

Results

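The genes described here are 37 genes of glycolysis and of the cellular response to low oxygen, taken by name and found through the accession of each array probe. All 37 had at least 1 probe on the array, out of 17305 named genes, and all 37 passed the filter on dim probes. They fall into 16 glycolytic enzymes, 6 transporters and regulators of glycolytic flux, the 2 alpha subunits of the hypoxia-inducible factors (HIF), and 13 genes known as HIF targets.

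The samples were intact ureteric buds of mouse kidney, the epithelial outgrowths that branch into the collecting system. One group received angiotensin II (AngII, 1e-05 M) for 6 h and the other, the control, received media alone for 6 h. Both groups were held in a matrix gel on an insert, in DMEM/F12 with 10% serum and with the growth factors GDNF and HGF at 100 ng/ml each, which the control thus carried too. No genotype, strain, age or number of embryos is given in the sources used here. The labels number 2 RNA pairs as biological replicates. Both RNAs of a pair met on the same array, once in each dye orientation, so there were 4 arrays, all on 1 slide. The comparison asks which transcripts differ between buds with and without AngII.

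Glycolysis splits glucose into pyruvate in the cytosol, and lactate dehydrogenase can then turn pyruvate into lactate. When oxygen is plentiful, prolyl hydroxylases mark the HIF alpha subunits for destruction through the VHL protein. When oxygen is scarce the subunits persist, pair with ARNT and switch on genes that carry a short core motif, often near their start. Many glycolytic genes are among them. The embryonic kidney grows in low oxygen, and HIF activity is known in its developing epithelia.

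Each value below is a log2 ratio of AngII over media within an array, so that a positive value means a higher signal in the AngII RNA. Where a mean is given it is over the 4 arrays. The ratios of the numbered pairs correlated at r = 0.981 across 14995 features, and 0 features differed between the pairs at a limma adjusted p under 0.05, with 767 at an unadjusted p under 0.05. The half-difference between pairs had an SD of 0.04 across features, about that of array noise alone (0.04), so the pairs were counted as 1 independent pair of RNAs (n = 1). A limma p-value here therefore reflects repeat hybridisation of the RNA, not the spread between animals or cultures. Arrays of opposite dye orientation correlated at 0.673 and 0.681, arrays of the same orientation at 0.962 and 0.973, and 13 of the 37 members had arrays of both signs. Between 19028 and 21922 of 41174 probes stood well above background, depending on the channel, and the number of arrays limits the precision. Of 21 markers of ureteric epithelium 20 were measured above background, the exception being the GDNF receptor gene Ret. All 12 stromal markers and 12 of 14 nephron markers were measured too, so these counts do not show how pure the buds were.

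The 13 genes grouped here as HIF targets were higher under AngII with few exceptions, while the glycolytic enzymes moved both ways. That holds for this group only. In a wider list of 34 measured HIF targets 18 rose and 14 fell by the same test. The groups were made by role, and known HIF targets also stand among the enzymes and the transporters and flux regulators. Ldha, a known HIF target grouped with the enzymes, fell at its brightest probe. Vegfa is counted as a rise by its brightest probe, and its other tested probes fell. Of the 13 HIF targets 11 rose and 1 fell, and of the 16 enzymes 9 rose and 5 fell, at an adjusted p under 0.05 in limma. The largest increases were those of Aldoc, an aldolase isoform, and Bnip3, a mitochondrial receptor for autophagy, at 2.43-fold and 2.42-fold. The largest decreases were those of Pkm, Gapdh and Ldha, which encode enzymes of the later steps of the pathway, all under 1.5-fold. The glucose transporters Slc2a1 and Slc2a3 did not pass the test. Over all 37 members 23 rose, 8 fell and 6 did not pass.

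These counts are read against the whole array, on which most features passed. Over all 14995 features 77.2% passed the limma threshold, 39.1% as higher and 38.1% as lower. Of the members 31 of 37 passed, a share near that background, so passing by itself says little about them. A size threshold was therefore also used. At least 1.5-fold, 4 of 37 members were higher (Aldoc, Bnip3, Car9 and Eno2) and none was lower, against 10.9% of all features in either direction, 5.50% higher and 5.40% lower. The sign was the same on all 4 arrays for 24 of 37 members, against 59.1% of all features. It was positive on all 4 for 19 members, against 31.0%, and negative on all 4 for 5, against 28.1%. With the replicate number as a block on the 4 arrays, a fit that leaves the dye difference in the error, 14 members passed, 11 higher and 3 lower, against 30.9% of all features, 16.3% higher and 14.6% lower. Those 14 were Aldoc, Eno2, Pdk1, Epas1, Bnip3, Bnip3l, Car9, Egln1, Adm, P4ha1 and Higd1a above 0, and Gapdh, Pkm and Ldha below it.

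As a group, the HIF targets had a median log2 ratio of 0.29 and the glycolytic enzymes 0.08, beside 0.00 for all features. On the arrays with AngII in Cy5 the HIF target median was 0.33 and 0.30, and on those with AngII in Cy3 it was 0.38 and 0.33. The enzyme median was 0.08 and 0.07 on the first arrays and 0.18 and 0.17 on the second. The HIF target median lay above the enzyme median on each of the 4 arrays, by 0.24, 0.23, 0.20 and 0.17, and by 0.21 in the mean over arrays. Without Bnip3 the HIF target median was 0.28, and without Aldoc the enzyme median was 0.08. A median shifts only to a neighbouring value when its most extreme member is left out, so these values say little about the groups' difference. The difference was given no test. With Agilent's processed signals the enzyme median was 0.05, and with median centring it was 0.16.

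**Figure D1:**
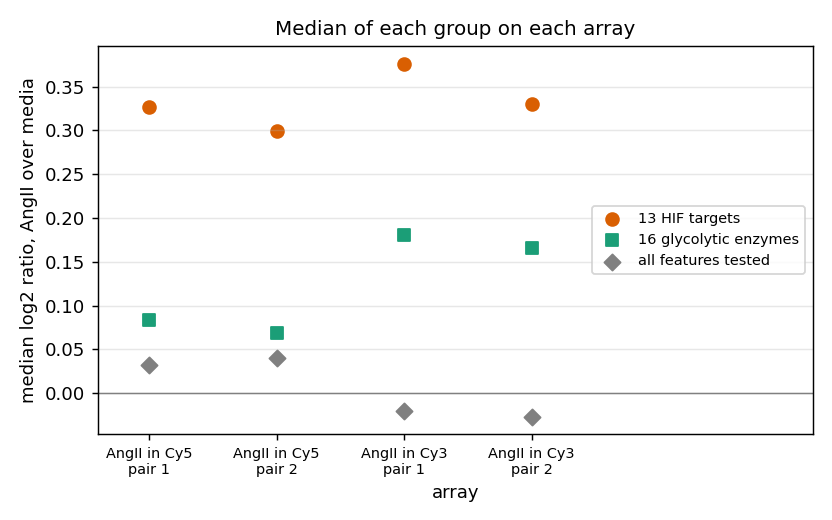
Median log2 ratio of AngII over media on each of the 4 arrays (horizontal axis) for the 13 HIF targets (circles), the 16 glycolytic enzymes (squares) and all features tested (diamonds). The circles lie between 0.30 and 0.38, above the squares, which lie between 0.07 and 0.18, on every array.

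Bnip3 had the largest ratio among the HIF targets. Its protein sits on the outer mitochondrial membrane and marks mitochondria for removal. In the AngII RNA its log2 intensity was 14.27, 14.13, 14.32 and 14.25, and in the media RNA of the same arrays it was 12.74, 12.72, 13.21 and 13.19. The lowest AngII value lay above the highest media value, but how often this held over all features is not given here. The log2 ratios were 1.53 and 1.41 on the arrays with AngII in Cy5 and 1.11 and 1.06 on those with AngII in Cy3, with a mean of 1.28 ± 0.03 (SE of the fit, adjusted p = 1.46e-19). Bnip3l, a paralog with the same role that also clears mitochondria from maturing red cells, rose by 0.43 (0.36, 0.41, 0.52 and 0.44 on the arrays in the same order). Bnip3 exceeded Bnip3l by 0.84 ± 0.05 on the log2 scale, and by 0.59 to 1.17 on single arrays. For a pair of genes, here and below, ± joins their SEs as if independent, although both were read on the same arrays.

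HIF acts through a short core motif, which is also common before the starts of other genes. The 150 bases before the start are shown for 4 members with increases or a decrease. These are Bnip3 and Aldoc with the largest increases, and Car9, a HIF target with the next largest. The last is Ldha, a known HIF target that fell at its brightest probe. The sequences are from RefSeq on GRCm38.p6, read 5′ to 3′ on the strand of the gene, with every match to ACGTG or GCGTG on either strand in capitals. CACGTG holds ACGTG on both strands and is counted once.
Bnip3, chr7:138909507-138909656, minus strand: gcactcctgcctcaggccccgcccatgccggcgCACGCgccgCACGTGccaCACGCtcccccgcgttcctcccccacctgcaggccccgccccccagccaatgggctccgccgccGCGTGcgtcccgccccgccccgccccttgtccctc
Aldoc, chr11:78322923-78323072, plus strand: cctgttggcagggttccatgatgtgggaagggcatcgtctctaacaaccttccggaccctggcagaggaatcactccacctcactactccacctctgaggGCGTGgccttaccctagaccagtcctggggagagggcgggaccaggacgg
Car9, chr4:43506876-43507025, plus strand: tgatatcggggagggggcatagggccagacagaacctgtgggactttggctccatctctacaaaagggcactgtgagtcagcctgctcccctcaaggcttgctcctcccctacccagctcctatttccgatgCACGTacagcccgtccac
Ldha, chr7:46845654-46845803, plus strand: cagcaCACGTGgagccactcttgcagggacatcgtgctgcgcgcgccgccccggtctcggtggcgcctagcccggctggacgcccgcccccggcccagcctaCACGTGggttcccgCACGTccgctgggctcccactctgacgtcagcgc

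The Bnip3 stretch held 4 matches, from 117 to 31 bases before the start, with CACGTG at 108 to 103. The Ldha stretch held 3, among them CACGTG at 145 to 140 and at 48 to 43, and the brightest Ldha probe had a negative ratio. Aldoc and Car9 held 1 match each, GCGTG at 50 to 46 and CACGT at 18 to 14. Aldoc and Ldha each have a further RefSeq start, and the 250 bases before it held 1 match in each. Eno2, also higher by at least 1.5-fold, is not shown, and the 250 bases before its start held 0 matches. Those of Gpi1 and Tpi1, which also rose, held 0 as well. RefSeq promoter windows were found for 33 of the 37 members, with 49 windows in all, and Slc2a3, Epas1, Bnip3l and Ndrg1 had no entry. In the 250 bases before the start, 38 of the 49 windows (77.6%) held a match, against 38.6% of 32851 windows of all genes. For the enzymes it was 20 of 27 windows (74.1%) and for the HIF targets 11 of 14 (78.6%). The median GC content was 60.4% in the members' windows and 52.4% in all windows, and its part in the difference was not tested. Windows of the same gene can overlap, and a match shows only that these letters are there.

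Car9, carbonic anhydrase IX, is an enzyme of the cell surface that acts in pH control and is a widely used hypoxia marker. Its log2 ratios were 0.75, 0.76, 0.54 and 0.67, with AngII in Cy5 on the first pair of arrays, and the mean was 0.68 ± 0.03 (adjusted p = 1.27e-14). In the AngII RNA its log2 intensity ran from 7.58 to 7.87 and in the media RNA from 6.91 to 7.12. The probe is dim, and an offset added to each signal can shrink the ratio of a dim probe. With Agilent's processed signals the Car9 ratio was 1.12, and without background subtraction it was 0.82. These settings differ in more than the offset, whose part was not tested.

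The procollagen prolyl hydroxylase genes also rose, P4ha1 by 0.54 (0.65, 0.54, 0.50 and 0.46) and P4ha2 by 0.19 (0.13, 0.02, 0.30 and 0.33). Both encode alpha subunits of the enzyme that hydroxylates collagen. The P4ha2 probe was the dimmest of the members, at a mean log2 intensity of 6.45, and had 0.72 with processed signals. The other P4ha1 probe had 0.28, so the sign held at both probes. Higd1a, which encodes a small mitochondrial membrane protein induced by hypoxia, rose by 0.41 (0.33, 0.25, 0.51 and 0.56), and its other probe had 0.90, which makes 0.66 averaged over both.

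Among the oxygen sensors, Egln1, which encodes the main HIF prolyl hydroxylase, rose by 0.38 (0.38, 0.44, 0.38 and 0.32), with 0.28 at its other probe. Egln3, a related hydroxylase that is itself a strong HIF target, fell by 0.16 (-0.25, -0.24, -0.05 and -0.10). The paralogs thus lay on opposite sides of 0, and Egln1 exceeded Egln3 by 0.54 ± 0.05, by 0.42 to 0.69 on single arrays. Egln3 did not pass on the pair of arrays with AngII in Cy3, where its ratio was -0.08 (adjusted p = 0.124), nor with the replicate block (adjusted p = 0.155).

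Smaller increases were seen for 3 further targets. Adm, the gene of the vasodilator peptide adrenomedullin, rose by 0.27 (0.31, 0.31, 0.16 and 0.28). Ankrd37, an ankyrin repeat gene known as a direct HIF target, rose by 0.23 (0.29, 0.30, 0.19 and 0.16), with an adjusted p of 0.0550 under the replicate block. Kdm3a, a histone demethylase gene, rose by 0.29, but its arrays were split. They read -0.11 and 0.04 with AngII in Cy5 and 0.61 and 0.63 with AngII in Cy3, and with the replicate block the adjusted p was 0.232. Ndrg1, a stress-responsive gene, had -0.05 (-0.15, -0.16, 0.07 and 0.01) and did not pass.

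Vegfa, the main angiogenic growth factor gene and a classic HIF target, gave no single direction. Its brightest probe rose by 0.17 (0.33, 0.27, 0.05 and 0.02), and 3 other tested probes had -0.23, -0.46 and -0.49, each below 0 on all 4 arrays. Averaged over its probes the ratio was -0.25 (adjusted p = 4.40e-07), and the counts of HIF targets under that rule became 10 higher and 2 lower. With processed signals the brightest probe no longer passed (0.11, adjusted p = 0.341). The brightest probe and the one at -0.23 carry the same transcript accession, and the other two share another one.

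The HIF alpha subunit genes rose together. Hif1a, which encodes the subunit that drives most glycolytic targets, rose by 0.39 (0.13, 0.21, 0.62 and 0.58). Epas1, the gene of HIF-2 alpha, rose by 0.42 (0.39, 0.43, 0.40 and 0.47). All 8 of these array values were above 0, those of Epas1 close to each other and those of Hif1a higher with AngII in Cy3. With the replicate block the adjusted p of Hif1a was 0.0657. Epas1 and Hif1a differed by 0.03 ± 0.05, from -0.22 to 0.26 on single arrays, which is within their spread. HIF activity is set mainly by protein stability, which these arrays did not measure.

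**Figure D2:**
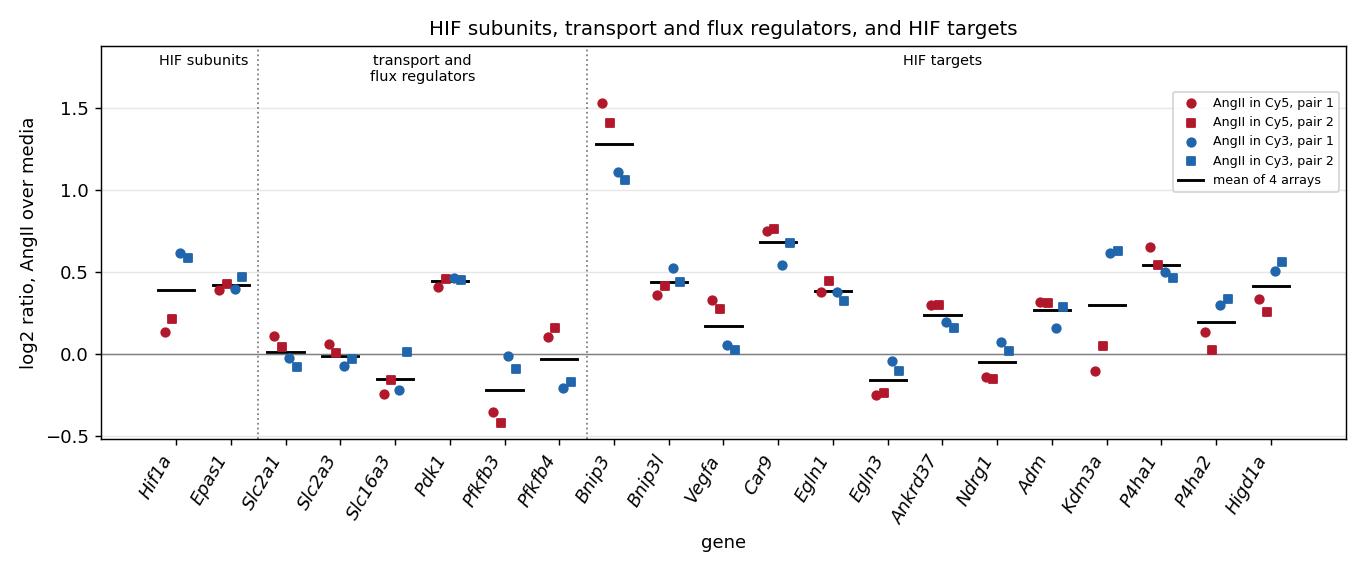
Log2 ratio of AngII over media (vertical axis) on each array for the HIF subunits, the transport and flux regulators and the HIF targets (horizontal axis). Red marks have AngII in Cy5, blue marks AngII in Cy3, circles are pair 1, squares pair 2, and black bars are means of the 4 arrays. Bnip3 and Car9 stand highest at 1.28 and 0.68, and Slc2a1, Slc2a3, Pfkfb4 and Ndrg1 straddle 0.

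The 6 transporters and regulators of flux had a median of -0.02, and 1 of them rose, 2 fell and 3 did not pass. Pdk1, whose kinase keeps pyruvate out of the mitochondria by inhibiting pyruvate dehydrogenase, rose by 0.44 (0.41, 0.46, 0.46 and 0.45). Its 4 arrays lay closer together than those of most members. Pfkfb3, which makes the fructose 2,6-bisphosphate that activates phosphofructokinase, fell by 0.22 (-0.35, -0.43, -0.01 and -0.09). Its other probes had -0.46 and -0.50, below 0 on every array, and the average over probes was -0.39. The call at the brightest probe was lost with the replicate block (adjusted p = 0.154). Slc16a3, the exporter of lactate known as MCT4, fell by 0.16 (-0.25, -0.16, -0.22 and 0.01). That value was -0.08 without replicate 1, -0.23 without replicate 2 and -0.01 with processed signals, where it did not pass (adjusted p = 0.953). Median centring also ended the call (-0.08, adjusted p = 0.148).

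The glucose importers did not pass. Slc2a1, known as GLUT1, had 0.01 (0.11, 0.04, -0.03 and -0.08), and Slc2a3, known as GLUT3, had -0.01 (0.06, 0.00, -0.08 and -0.03). Pfkfb4, a further fructose 2,6-bisphosphate enzyme gene, had -0.03 (0.10, 0.16, -0.21 and -0.17). In each of the 3 genes the arrays with AngII in Cy5 lay above 0 and those with AngII in Cy3 below it. The SE of these means was 0.03.

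Glycolysis begins with hexokinase, and its genes showed only small ratios. Hk1 had 0.02 and 0.09 with AngII in Cy5 and -0.16 and -0.25 with AngII in Cy3. Hk2 had -0.03 and -0.02 in the first orientation and 0.19 and 0.22 in the second. The means, -0.08 for Hk1 (adjusted p = 0.0439) and 0.09 for Hk2 (adjusted p = 0.0214), passed narrowly, and the replicate block ended both (adjusted p = 0.545 and 0.445), as did keeping dim probes in (0.125 and 0.0670). Hk1 also did not pass with processed signals (-0.15, adjusted p = 0.171) or median centring (-0.02, adjusted p = 0.594).

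Gpi1, which encodes the next enzyme, glucose-6-phosphate isomerase, rose by 0.15 (-0.12, -0.09, 0.42 and 0.38). Its sign too followed the dye orientation, and with the replicate block the adjusted p was 0.435. Phosphofructokinase, the main controlled step, has a liver, a muscle and a platelet isoform. Pfkl (-0.14, -0.13, 0.26 and 0.23) and Pfkm (0.25, 0.18, -0.12 and -0.18) did not pass, with means of 0.06 and 0.03. Pfkp rose by 0.19 (0.16, 0.13, 0.29 and 0.20) and was above 0 on all 4 arrays, with 0.13 at its other tested probe. The replicate block ended its call (adjusted p = 0.0813), and so did processed signals (adjusted p = 0.174).

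At the aldolase step the isoforms parted. Aldoc, best known from brain, had ratios of 1.45 and 1.24 with AngII in Cy5 and 1.26 and 1.16 with AngII in Cy3, and a mean of 1.28 ± 0.04 (adjusted p = 5.02e-19). Its log2 intensity was 11.47, 11.12, 11.43 and 11.27 in the AngII RNA and 10.02, 9.87, 10.17 and 10.11 in the media RNA. Aldoa, the isoform of muscle and most other tissues, rose by 0.17 (0.14, 0.09, 0.20 and 0.23), with 0.30 at its other probe and 0.33 with processed signals. Aldoc exceeded Aldoa by 1.11 ± 0.05, and by 0.92 to 1.31 on single arrays. Tpi1, triose phosphate isomerase, rose by 0.32 (0.19, 0.05, 0.49 and 0.54), with an adjusted p of 0.0946 under the replicate block.

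The next enzymes oxidise the triose and regain ATP. Gapdh, often used as a reference gene, fell by 0.48 (-0.53, -0.63, -0.40 and -0.37), with an adjusted p of 6.14e-12. Its log2 intensity ran from 14.92 to 15.05 in the AngII RNA and from 15.29 to 15.68 in the media RNA. Its other probe had -0.30. Pgk1, phosphoglycerate kinase, the first ATP-forming step, rose by 0.23 (0.38, 0.28, 0.14 and 0.11), with 0.25 at its other probe. Pgam1, the mutase that follows it, rose by only 0.08 (0.25, 0.20, -0.13 and 0.00, adjusted p = 0.0398). The replicate block ended both calls (adjusted p = 0.0846 for Pgk1 and 0.559 for Pgam1), and the Pgam1 call was also lost with processed signals (0.397), with dim probes kept in (0.113) and with a dye term in the fit (0.0526).

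The enolase isoforms differed as the aldolases did. Eno2, the isoform named for neurons, rose by 0.65 (0.77, 0.72, 0.60 and 0.52), with 0.51 at its other probe. Eno1, the isoform of most tissues, fell by 0.22, but its arrays read -0.56 and -0.60 with AngII in Cy5 and 0.17 and 0.13 with AngII in Cy3. That was the widest gap between dye orientations among the members, and with the replicate block the adjusted p was 0.410. Eno1 had 1 probe, whose mean log2 intensity of 9.43 lay below that of the brightest Eno2 probe (9.96). Eno2 exceeded Eno1 by 0.86 ± 0.05, from 0.39 to 1.33 on single arrays, and thus on all 4. Of 7 neural markers 3 were measured, with 2 lower and none higher: Tubb3 at -0.78, Elavl3 at -0.58 and Elavl4, which did not pass, at 0.07. Stmn2 was not well above background.

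The pathway ends with pyruvate kinase and lactate dehydrogenase. Pkm, the pyruvate kinase gene of most tissues outside the liver, fell by 0.55 (-0.36, -0.54, -0.62 and -0.67), with an adjusted p of 1.56e-12. Ldha fell by 0.41 (-0.20, -0.33, -0.54 and -0.55) at its brightest probe. The other Ldha probe, also bright, had 0.07 (0.10, 0.06, 0.04 and 0.09), above 0 on all 4 arrays. With the mean of the probes the Ldha ratio was -0.17 (adjusted p = 7.52e-05). The direction of Ldha thus depended on the probe, while Pkm had 1 probe on the array. The mean log2 intensity was 9.50 at the Pkm probe and 15.28 at the brightest Ldha probe. How well the Pkm probe reads its transcript was not tested.

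In pathway order, of the 9 genes from hexokinase to triose phosphate isomerase 6 rose, 1 fell and 2 did not pass (median 0.15). Of the 7 genes from Gapdh to Ldha 3 rose and 4 fell (median -0.22). The latter median is the value of Eno1, whose sign followed the dye, and it was -0.27 with AngII in Cy5 and -0.07 with AngII in Cy3. The split at Gapdh was made after the values were seen and was given no test. Over all features 39.1% passed as higher and 38.1% as lower. In the first stretch 5 of 9 genes had arrays of both signs, and in the second 2 of 7, while 59.1% of all features had one sign on all 4 arrays. Of the 16 enzymes, 5 passed with the replicate block: Aldoc and Eno2 as higher and Gapdh, Pkm and Ldha as lower. Genes such as Gapdh, Pgk1, Eno1 and Ldha have processed copies elsewhere in the genome, so a probe can read more than its own transcript.

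**Figure D3:**
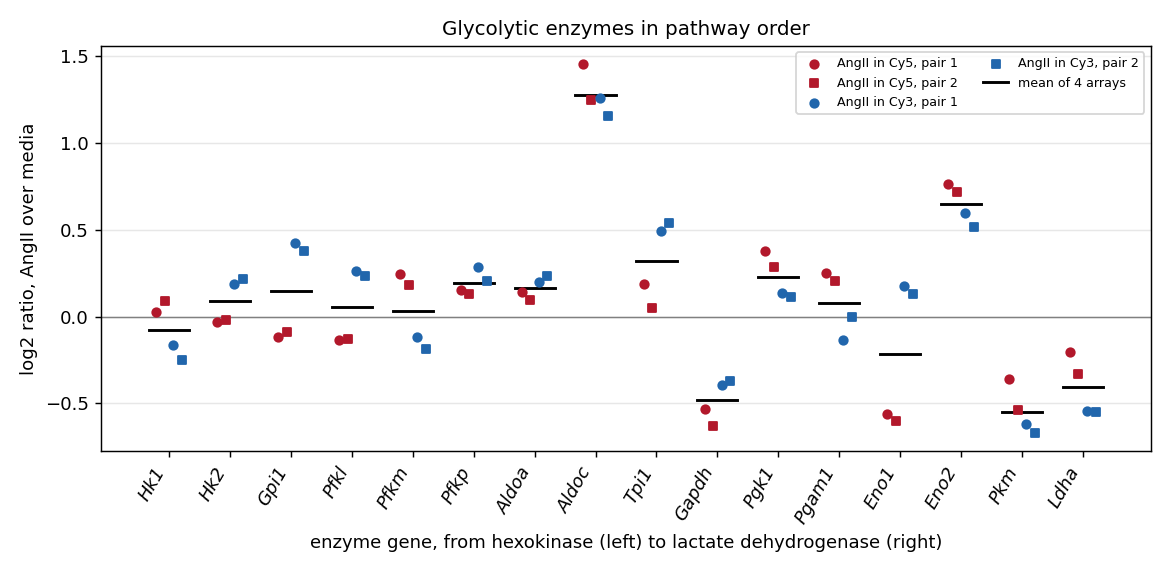
Log2 ratio of AngII over media (vertical axis) on each array for the 16 glycolytic enzymes, ordered from hexokinase to lactate dehydrogenase (horizontal axis). Red marks have AngII in Cy5, blue marks AngII in Cy3, circles are pair 1, squares pair 2, and black bars are means of the 4 arrays. Aldoc at 1.28 and Eno2 at 0.65 stand above the other enzymes, and Gapdh, Pkm and Ldha lie below 0 on all 4 arrays.

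**Figure D4:**
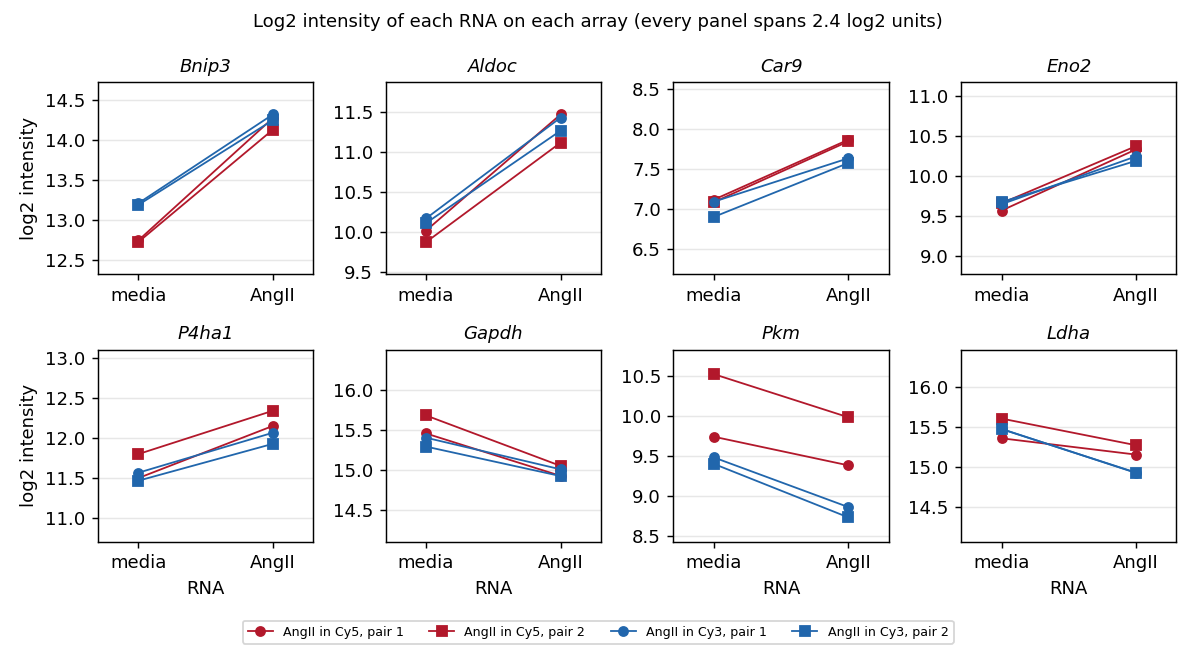
Log2 intensity (vertical axis) in media RNA and AngII RNA (horizontal axis) for 8 members, with a line for each of the 4 arrays, red with AngII in Cy5 and blue with AngII in Cy3. The lines of Bnip3, Aldoc, Car9, Eno2 and P4ha1 go up and those of Gapdh, Pkm and Ldha go down on all 4 arrays, with ratios from 1.06 to 1.53 for Bnip3 and from -0.55 to -0.20 for Ldha.

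Pairs of related members were set against each other within each array. Of 11 pairs, 5 had a difference of one sign on all 4 arrays: Aldoc over Aldoa, Eno2 over Eno1, Bnip3 over Bnip3l, Egln1 over Egln3 and P4ha1 over P4ha2, the last by 0.35 ± 0.05. The hexokinase, phosphofructokinase, glucose transporter, Pfkfb and HIF alpha pairs had arrays of both signs. Slc2a1 and Slc2a3 differed by 0.02 ± 0.05 and by -0.05 to 0.05 on single arrays.

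Of the 37 members 13 had more than 1 tested probe, and in 2 of them, Ldha and Vegfa, the probes had opposite signs. In the other 11 all tested probes had the same sign. Of 58 member probes 53 were tested. The authors' deposited table gave the same sign as the values here for all 37 members at the brightest probe, and called 22 of them higher, 6 lower and 9 not changed. Its ratios correlated with those computed here at r = 0.995 across features.

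**Figure D5:**
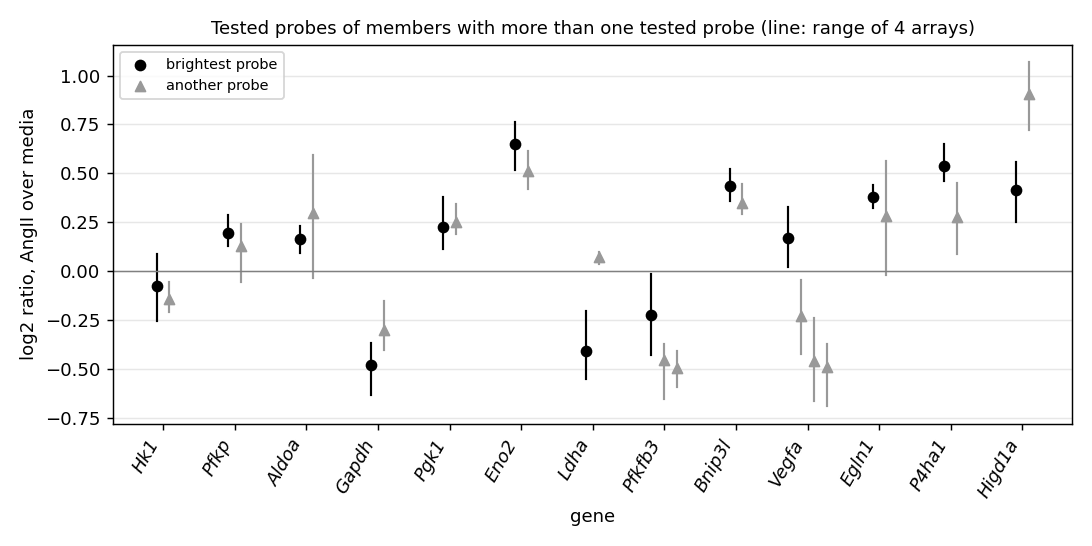
Mean log2 ratio of AngII over media (vertical axis) for every tested probe of the 13 members with more than 1 tested probe (horizontal axis). Black circles are the brightest probe, grey triangles other probes, and lines span the 4 arrays. The probes of Ldha (-0.41 and 0.07) and of Vegfa (0.17 to -0.49) lie on both sides of 0.

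Other genes of the same pathways went in both directions. Of 16 measured genes among 22 other isoforms and transporters of glycolysis 10 rose and 2 fell (median 0.16). Only Bpgm, which makes the 2,3-bisphosphoglycerate of red cells, reached 1.5-fold, with a rise of 0.70 (0.77, 0.85, 0.63 and 0.55). Of 10 measured genes of pyruvate entry into mitochondria 4 rose and 3 fell (median 0.02) and none reached 1.5-fold. In the gluconeogenesis and glycogen list 7 of 9 rose and 2 fell (median 0.32). Pgm1, phosphoglucomutase, rose by 0.89 and the glycogen phosphorylase gene Pygb fell by 0.64. In the pentose phosphate list 3 of 7 rose and 3 fell (median -0.03), and H6pd, the dehydrogenase of the endoplasmic reticulum, rose by 0.90.

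Of 10 measured HIF partners and oxygen-sensing genes 1 rose and 5 fell (median -0.10), beside 39.1% and 38.1% of all features. Of these 10, 3 were below 0 and 1 was above 0 on all 4 arrays. Egln2, the remaining HIF prolyl hydroxylase gene, fell 2.02-fold (-0.71, -0.84, -1.24 and -1.27), the opposite sign to Egln1. A wider list of 38 reported HIF targets, of which 34 were measured, had 18 that rose and 14 that fell (median 0.15). It was thus more mixed than the 13 members, a difference that was not tested. By size it was led by Selenbp1, a selenium-binding protein gene (1.18), Jmjd6, a 2-oxoglutarate oxygenase gene (-0.93), Ccn1, a matricellular protein gene (-0.89), and Stc2, the gene of the secreted glycoprotein stanniocalcin-2 (0.82). Of these 34 genes 15 were above 0 on all 4 arrays and 14 below 0.

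Markers of red cells moved with these results. Of 19 erythroid markers 8 were measured, of which 7 rose and none fell (median 2.06), led by the globin genes Hbb-bt (2.78), Hbb-bh1 (2.58) and Hba-a1 (2.29). Their mean log2 level ran from 10.24 to 10.53 in the AngII RNA and from 8.64 to 8.75 in the media RNA. Among the rest, Epb42, Sptb, Klf1, Gata1, Tfr2 and Rhag were not well above background. Bnip3l and Bpgm are also known from red cells, and the part of these cells in the members' ratios was not tested. In bulk RNA, a change in the number of cells of a type and a change of RNA per cell cannot be told apart.

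Other marker lists moved less. Leukocyte markers had 3 higher and 4 lower of 8 (median -0.07). They were dim in both RNAs (mean log2 level 6.78 to 6.87 with AngII and 6.68 to 6.76 with media). The higher were Ptprc (0.64), Cd74 (0.57) and Tyrobp (0.33). The lower were C1qa (-0.19), Fcer1g (-0.18), C1qb (-0.17) and Csf1r (-0.13). Lyz2 and Itgam were not well above background. Endothelial markers had 2 higher and 6 lower of 10 (median -0.09), led by Sox18 (0.49), Plvap (-0.49) and Flt1 (0.37), with Tek not well above background. Besides Plvap, the lower endothelial markers were Sox17 (-0.31), Cdh5 (-0.14), Emcn (-0.13), Tie1 (-0.10) and Kdr (-0.09). Stromal markers had 6 higher and 3 lower of 12 (median 0.09), led by the smooth muscle gene Acta2 (1.69), the pericyte gene Cspg4 (1.07) and Col1a1 (0.40). The lower stromal markers were Tagln (-0.36), Foxd1 (-0.16) and Col1a2 (-0.10). Markers of nephron progenitors and nephrons had 6 higher and 5 lower of 12 (median 0.10), led by Wnt4 (1.48), Tmem100 (0.77) and Meox1 (-0.60), with Nphs1 and Slc34a1 not well above background. The markers of ureteric epithelium itself had 7 higher and 9 lower of 20 (median 0.00), led by Wnt9b (1.53), Wnt7b (-1.13) and Etv4 (-0.95). The part of these cells in the members' ratios was not tested.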

How the data were processed

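The 4 arrays give a signal for each RNA at 41174 probes. The file headers name Feature Extraction, version 10.5.1.1, as the source of the spot values. The submitters' processing notes name limma but no version. As deposited, the intensity columns hold each spot's median signal and median background, and a signal the scanner software had corrected and balanced between dyes. A log10 ratio and 0 or 1 flags were deposited beside them. The authors' deposited table has for each spot a log2 ratio, an average log2 intensity, a p-value after adjustment, and a score that marks lower, unchanged or higher, and its normalisation is not given in the sources used here.

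In R 4.3.3 with limma 3.58.1, median signals were background-corrected by normexp (offset 50), then loess-normalised within arrays, with control spots at weight 0 and outlier-flagged spots removed. Ratios of arrays with AngII in Cy3 were turned and spots of a probe averaged. For the log2 intensities of each RNA, the mean intensities were also quantile-normalised between arrays, which leaves the ratios as they were. The share of all features without overlap between the RNAs is not given here. A probe was kept if well above background for the same RNA on all 4 arrays (19393 probes). Both arrays of a replicate number were averaged, since an array pairs the RNAs of that number by construction, and limma's lmFit and eBayes tested the ratios against 0, with Benjamini-Hochberg adjustment over 14995 features, the brightest probe standing for a gene. Accessions matched to RefSeq genes of GRCm38.p6 named 25097 probes. Per-array values are given for each enzyme and each passing member, genes of other metabolic and HIF lists are named if past 1.5-fold, up to 4 a list, and cell markers by size of ratio, up to 3 a list, or if not well above background. The lower leukocyte, endothelial and stromal markers are named as well. The fit was tested on simulated data. Alternatives changed background, normalisation, filter, probe choice, arrays and model. Members and lists were chosen with earlier results of these data known.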

Additional observations from a re-analysis of the deposited data

Results flagged for a closer look

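In 11 members every array with AngII in Cy5 lay on one side of 0 and every array with AngII in Cy3 on the other, which held for 21.7% of all features. The difference between orientations was not tested for any of them. Among the enzymes, the mean log2 ratio of AngII over media with AngII in Cy5 was 0.056 for Hk1, -0.026 for Hk2, -0.10 for Gpi1, -0.13 for Pfkl, 0.21 for Pfkm, 0.23 for Pgam1 and -0.58 for Eno1. With AngII in Cy3 the same genes had -0.21, 0.20, 0.40, 0.25, -0.15, -0.07 and 0.15. Among the other members, Slc2a1 had 0.074, Slc2a3 0.030, Pfkfb4 0.13 and Ndrg1 -0.15 with AngII in Cy5, and -0.05, -0.05, -0.19 and 0.04 with AngII in Cy3. Of these 11, 5 passed the test in the mean over orientations: Hk1, Hk2, Gpi1, Pgam1 and Eno1.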

How the results depend on the processing

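With the replicate block, 4638 features and 14 members passed, since the dye difference then counts as error. Other settings that gave a test left between 25 and 32 members past the threshold, and the share of all features changed with them. It was 64.1% with processed signals (25 members) and 73.8% with median centring (32 members). With dim probes kept in, it was 36.5% of 32657 features (28 members). The enzyme median was 0.054 with processed signals, 0.16 with median centring, 0.18 on the arrays with AngII in Cy3 and 0.12 in the authors' deposited table, and the HIF target median exceeded it by 0.27 with processed signals. Leaving out each replicate number in turn moved the HIF target median from 0.25 to 0.34, the enzyme median from 0.07 to 0.10, their difference from 0.18 to 0.24, and the members past 1.5-fold from 4 to 5, with no test since 1 ratio remained.

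The sign of some members turned, among them Gpi1, Kdm3a, Eno1 and Vegfa, which had passed. With processed signals Hk2 was at -0.00064, Pfkm at -0.030 and Slc2a1 at -0.0060. With median centring Slc2a3 was at 0.067, Pfkfb4 at 0.016 and Ndrg1 at 0.023. Averaged over its probes, Vegfa was at -0.25. With AngII in Cy5 only, Hk1 was at 0.056, Hk2 at -0.026, Gpi1 at -0.10, Pfkl at -0.13, Slc2a3 at 0.030, Pfkfb4 at 0.13 and Kdm3a at -0.031. With AngII in Cy3 only, Pfkm was at -0.15, Pgam1 at -0.068, Eno1 at 0.15, Slc2a1 at -0.055 and Ndrg1 at 0.042. Without each replicate in turn Pfkm ran from -0.0016 to 0.065 and Slc2a1 from -0.022 to 0.041. The cause of these turns was not tested. Leaving out saturated spots was not run, since 0 spots were saturated. The ratios of the dim probes of Car9 and P4ha2 were 0.82 and 0.28 without background subtraction, and 1.12 and 0.72 with processed signals. The offset was not changed by itself, so its part in these values was not tested.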
